A study of Mus musculus with 28 samples.

Results

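Chemokine receptors are seven-transmembrane proteins on the surface of leukocytes and microglia that bind small secreted chemokines and, through inhibitory G proteins, direct the movement and activation of the cell. 5 receptor genes were described here across the genotypes and housing conditions of an Alzheimer's disease mouse study: *Ccr1*, *Ccr2*, *Ccrl2*, *Cxcr4* and *Cmklr1*. They were chosen by name, 5 of the 48587 gene symbols in the deposited count table, and all 5 passed the filter on low counts, as did 15298 genes in all. CCR1 binds inflammatory chemokines such as CCL3 and CCL5, and CCR2, the receptor for CCL2, is the classical receptor of inflammatory monocytes and is low in resident microglia. CXCR4 is the receptor for CXCL12 and also binds the cytokine MIF. CMKLR1 is the signalling receptor for chemerin, the product of *Rarres2*, whereas the atypical receptor CCRL2 binds chemerin on the cell surface without signalling through G proteins.

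The measurements were read counts from the RNA of microglia sorted as viable CD11b+CD45low cells from the hippocampus of 28 male mice, 1 library per mouse. 5xFAD mice carry human mutant APP and PS1 transgenes heterozygously on a C57BL/6J background under the Thy1 promoter, which is active in neurons, and their non-transgenic littermates were the wild-type (WT) mice. Mice of both genotypes were specific pathogen-free (SPF), germ-free (GF) or treated with antibiotics (ABX) for 8 weeks, and all were 16 weeks old per the labels. Among the WT mice 5 were SPF, 4 GF and 5 ABX, and among the 5xFAD mice 3 were SPF, 5 GF and 6 ABX. Mice are named by their titles, in which FAD stands for 5xFAD. GF mice came from another facility than the rest, and an effect of GF housing and one of facility cannot be told apart.

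The libraries held between 14441610 and 29977395 counted reads. Each of 11 microglial marker genes, among them *P2ry12*, *Tmem119* and *Cx3cr1*, was detected in every library, and their summed level was between 56100 and 75300 CPM, the share of a library's reads scaled to a common total. The dump gate of the sort removed cells with surface markers of lymphocytes, monocytes and granulocytes, such as CD3, Ly6C and Ly6G. Several libraries nevertheless stood apart in markers of other cells, and these are given beside the results they touch. Neutrophil granule genes such as *S100a8* were present in the 3 SPF 5xFAD mice, where the neutrophil list without *Csf3r*, which every library held at 370 CPM or more, summed to between 60.8 and 269 CPM, and in ABX 5xFAD mouse FAD_ABX_1151, where it summed to 141 CPM. It was at 1.47 CPM or less in the other 24 libraries. The samples' descriptions follow 3 numbering styles: SPF WT and ABX WT mice share one, SPF 5xFAD mice and ABX 5xFAD mouse FAD_ABX_1151 another, and the remaining 5 ABX 5xFAD mice the last one with the GF mice of both genotypes. Whether a style marks a batch is not stated, and in SPF and ABX mice style and genotype cannot be told apart. GF and SPF 5xFAD mice differ fully in style, which cannot be told apart from housing there either, and a fit with style as a term links them through mouse FAD_ABX_1151 alone. GF mouse FAD_GF_201 is 5xFAD by title and genotype but WT by description, and it was used as 5xFAD.

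Per kilobase of exon, *Cmklr1* was the most abundant of the receptors, with a mean of 11.6 CPM per kilobase over the 28 mice. *Ccr1* followed at 9.94 and *Ccrl2* at 8.13 CPM per kilobase. *Ccr2* lay at 1.83 and *Cxcr4* at 0.425 CPM per kilobase. The order of the upper 3 turned between groups: *Ccr1* lay above *Cmklr1* in SPF WT (13.1 against 11.9 CPM per kilobase) and ABX 5xFAD mice (12.8 against 9.91), and *Ccrl2* lay above *Ccr1* in SPF 5xFAD (8.53 against 7.5) and GF 5xFAD mice (11.1 against 4.96). All following levels are CPM scaled by TMM factors, which compare a gene with itself between mice. The genes differed in how much they varied between mice: the coefficient of variation over the 28 mice was 19.9% for *Cmklr1*, 27.7% for *Ccrl2*, 46.7% for *Ccr1*, 99.2% for *Ccr2* and 104% for *Cxcr4*. In a bulk sample of sorted cells, fewer cells that express a gene and less RNA per cell cannot be told apart.

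**Figure D1:**
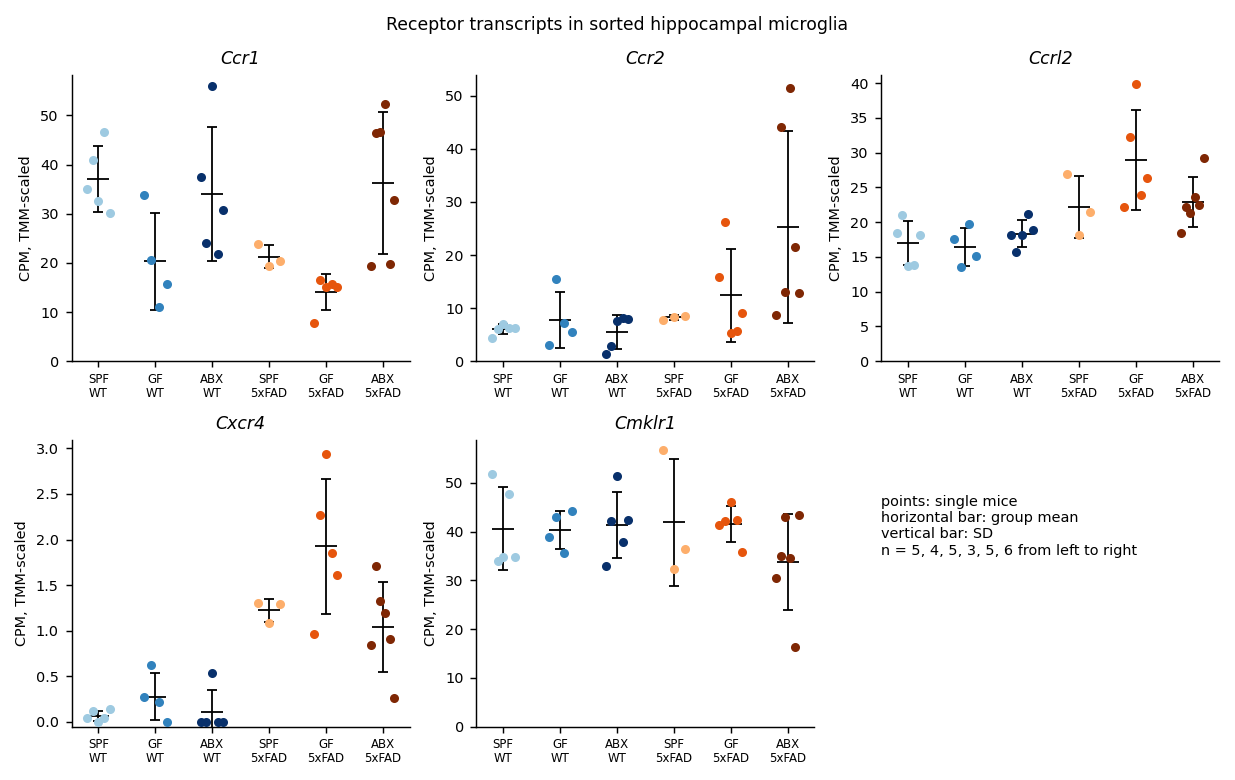
Levels of the 5 receptor transcripts in CPM (vertical axes, from 0) in each of the 6 groups, with 1 point per mouse, the group mean as a horizontal bar and the SD as a vertical bar. *Cxcr4* lay at 0.621 CPM or less in every WT mouse, *Ccr2* reached 44.1 and 51.5 CPM in 2 ABX 5xFAD mice, and *Ccr1* stayed at 16.6 CPM or less in all GF 5xFAD mice.

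The promoters of *Cxcr4* and *Ccrl2*, the receptors that were higher in 5xFAD than in WT mice under GF housing, are given to show the sequence in front of these genes. *Cxcr4* lies on the minus strand of chromosome 1 (GRCm38, chr1:128588199-128592293) and *Ccrl2* on the minus strand of chromosome 9 (chr9:111054486-111057519). The sequences are RefSeq sequence of GRCm38.p6 from the table of gene starts, read 5′ to 3′ on the strand of the gene, and they end just before the gene starts. The *Cxcr4* window is chr1:128592300-128592549 and the *Ccrl2* window chr9:111057520-111057768.
Cxcr4: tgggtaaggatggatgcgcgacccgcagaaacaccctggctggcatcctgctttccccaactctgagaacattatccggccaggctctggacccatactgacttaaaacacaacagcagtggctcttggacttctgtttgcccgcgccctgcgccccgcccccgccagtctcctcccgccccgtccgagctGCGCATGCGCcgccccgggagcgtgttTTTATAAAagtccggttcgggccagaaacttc
Ccrl2: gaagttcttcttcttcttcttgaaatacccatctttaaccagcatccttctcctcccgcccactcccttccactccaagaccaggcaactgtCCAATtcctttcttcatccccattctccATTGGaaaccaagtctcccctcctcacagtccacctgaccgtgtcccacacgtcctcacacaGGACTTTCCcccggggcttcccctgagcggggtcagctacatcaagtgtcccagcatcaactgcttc
Capitals mark matches to motifs, searched on both strands of the gene. The *Cxcr4* window held the TATA box, searched as TATAAA, about 30 bases before the start and present in 12.4% of 32851 promoter windows of 250 bases. It also held the NRF1 core, searched as GCATGCGC and present in 2.26% of all windows. Both motifs matched on either strand by overlapping letters. The *Ccrl2* window held the kappaB motif, searched as GGACTTTCC, 68 bases before the start, and 0.283% of all windows held it. The CCAAT box matched once on each strand of the *Ccrl2* window and stood in 33.8% of all windows. Another 4 motifs had no match in these windows. They were the AP-1 motif, searched as TGANTCA and present in 6.75% of all windows, the PU.1 motif, searched as GAGGAAGT (2.44%), the E-box, searched as CACGTG (6.02%), and the GAS motif, searched as TTCNNNGAA (7.02%). A match in letters is a description of the sequence and says nothing on binding in these cells.

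*Cxcr4* was close to absent in WT microglia and was higher in 5xFAD mice in each of the 3 housing conditions. In SPF WT mice it was at 0, 0.0408, 0.0431, 0.115 and 0.14 CPM, and in SPF 5xFAD mice at 1.08, 1.29 and 1.3 CPM. In GF WT mice it was at 0, 0.215, 0.269 and 0.621 CPM, against 0.962, 1.61, 1.85, 2.27 and 2.94 CPM in GF 5xFAD mice. The groups did not overlap in SPF or GF mice. In ABX WT mice 4 libraries were at 0 and mouse WT_ABX_911 at 0.535 CPM, and the 6 ABX 5xFAD mice ranged from 0.261 CPM in mouse FAD_ABX_1482 to 1.71 CPM, with a median of 1.05 CPM. Mouse WT_ABX_911 lay above mouse FAD_ABX_1482, so the ABX groups overlapped in this pair. These levels rest on few reads: a WT library held at most 10 *Cxcr4* reads and a 5xFAD library between 4 and 72. *Cxcr4* thus passed the filter on low counts through the 5xFAD groups, where it was high, and its calls between genotypes carry this limit. The 6 WT libraries with 0 reads allow a level of up to 0.0989 to 0.198 CPM each, taking 3 reads as the upper limit that a count of 0 leaves. This limit covers counting error only.

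Tests between groups used the quasi-likelihood method of edgeR over all 28 mice, with Benjamini-Hochberg adjustment over the 15298 genes and a threshold of 0.05. *Cxcr4* rose by a log2 fold change of 4.02 ± 0.99 (SE) in SPF 5xFAD against SPF WT mice (edgeR, adjusted p = 0.0116), in 3 of 3 mice above all WT mice. It was the 1 receptor of the 5 that passed in SPF mice, where 4.57% of all tested genes passed. In ABX mice the log2 fold change was 3.3 ± 0.899 (SE, edgeR, adjusted p = 0.0121), with 5 of 6 5xFAD mice above all WT mice. Without ABX WT mouse WT_ABX_911, whose group is then at 0 throughout, the fitted value was 7.42, which depends on the prior count. In GF mice *Cxcr4* rose by 2.78 ± 0.92 on the log2 scale (SE, edgeR, adjusted p = 0.0376), in 5 of 5 mice. That call was lost when any of GF WT mice WT_GF_199, WT_GF_230 and WT_GF_231 or GF 5xFAD mice FAD_GF_182, FAD_GF_184 and FAD_GF_185 was left out, with adjusted p between 0.0518 and 0.102 and log2 fold changes of 2.39 to 2.8. With mouse FAD_GF_201 counted as WT the value was 1.87 (edgeR, adjusted p = 0.162). DESeq2 and limma's voomWithQualityWeights called *Cxcr4* in all 3 housing conditions, with log2 fold changes between 2.81 and 4.87.

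The size of the *Cxcr4* difference was not shown to depend on housing. Its 5xFAD effect differed by -1.25 ± 1.27 (log2, SE) between GF and SPF mice, by -0.73 ± 1.32 between ABX and SPF mice and by 0.52 ± 1.14 between ABX and GF mice, and these values are wide enough to hold differences of several fold. Among 5xFAD mice the order of mean levels was GF (1.93 ± 0.739 CPM, SD, n = 5), SPF (1.23 ± 0.124, n = 3) and ABX (1.04 ± 0.495, n = 6), and neighbours in this order overlapped. The gap of 0.764 CPM between ABX 5xFAD and GF WT mice (0.276 ± 0.257 CPM, n = 4) was the only one between neighbours that was larger than the SD of either group. The neutrophil markers named above were present in the SPF 5xFAD mice, and their part in the *Cxcr4* value of this group was not tested. The monocyte list summed to between 22.9 and 39.4 CPM in SPF 5xFAD against 3.02 to 5.14 in SPF WT mice, to between 9.91 and 36.6 in GF 5xFAD against 3.22 to 23.2 in GF WT mice, and to between 26.1 and 98.2 in ABX 5xFAD against 1.3 to 8.02 CPM in ABX WT mice. Over the 28 mice *Cxcr4* correlated with this sum with r = 0.77, with the neutrophil sum, here with *Csf3r*, which made up most of it, with r = 0.68, with the microglial sum with r = -0.65 and with the border-associated macrophage sum with r = 0.63. With group means removed these values were 0.41, -0.3, 0.14 and 0.08. For the T and NK cell and dendritic cell sums r was 0.59 and 0.42, and -0.01 and -0.06 with group means removed. The T and NK cell sum lay between 0.924 and 2.31 CPM in SPF 5xFAD mice and at 0.646 CPM or less in SPF WT mice. The dendritic cell sum lay between 16.9 and 25.8 CPM in GF 5xFAD against 8.44 to 14.8 CPM in GF WT mice. The part of these cells, of monocytes and of border-associated macrophages was not tested either. In the 5 GF 5xFAD mice, where *Cxcr4* had its highest mean, the neutrophil list without *Csf3r* summed to 1.47 CPM or less. *S100a8* and *S100a9*, which encode the calprotectin of neutrophils, were at 0 there. The sum of 1.47 CPM was that of mouse FAD_GF_184, which also had the most *Cxcr4* (2.94 CPM). *Cxcr2*, another gene of that list, was lower in ABX than in GF 5xFAD mice (log2 -6.25, edgeR, adjusted p = 0.0252). The part of neutrophils in the *Cxcr4* values of GF mice was not tested. Over the 28 mice, the genes whose log2 CPM resembled *Cxcr4* most were *Ephx1*, *Nceh1*, *Glb1*, *Lilrb4a* and *Haus8*, with Pearson r between 0.88 and 0.89, among the 8930 genes whose average log2 CPM was 3 or more. With group means removed the nearest genes were *Bach2*, *Fnbp1l*, *Ubxn7*, *Zfp560* and *Dgcr8* (r = 0.65 to 0.7), so the first set shared the difference between groups. These correlations are descriptions over mice that share their group.

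**Figure D2:**
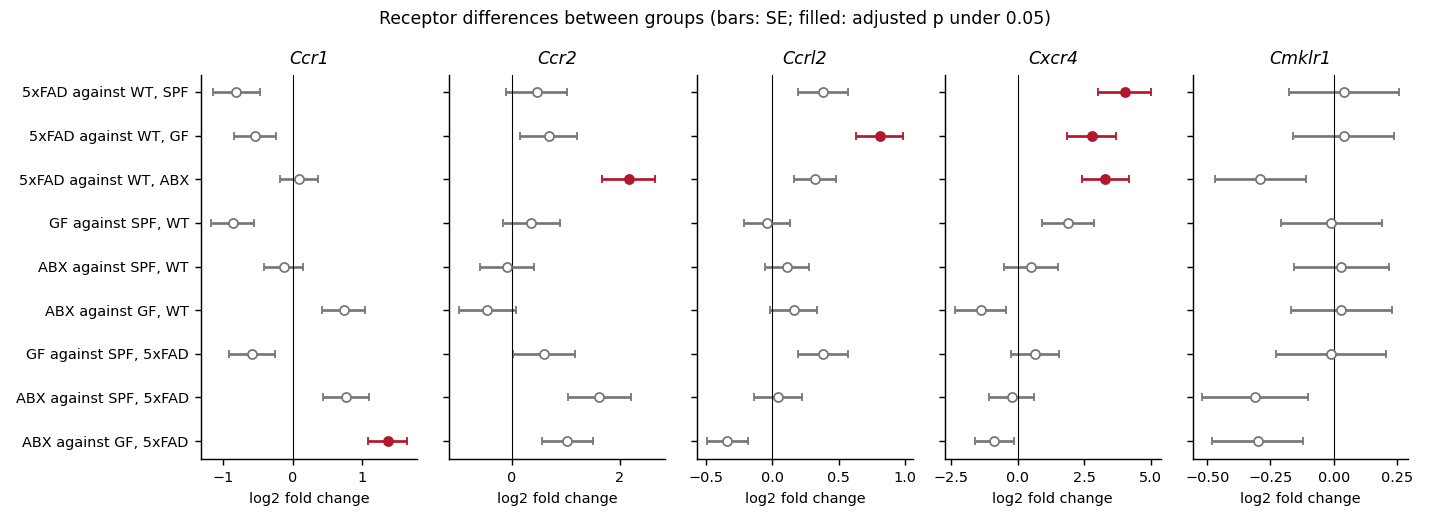
Log2 fold changes (horizontal axes, different for each gene) of the 5 receptors in 9 comparisons between groups, with SE as bars and filled points where the adjusted p was under 0.05. *Cxcr4* passed in 5xFAD against WT mice in all 3 housing conditions, *Ccrl2* in GF mice, *Ccr2* in ABX mice and *Ccr1* in ABX against GF 5xFAD mice.

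*Ccrl2*, the atypical chemerin receptor, was higher in GF 5xFAD than in GF WT mice. It was at 13.5, 15.1, 17.6 and 19.7 CPM in GF WT mice and at 22.2, 23.9, 26.3, 32.3 and 39.9 CPM in GF 5xFAD mice, so that the groups did not overlap. The log2 fold change was 0.81 ± 0.176 (SE, edgeR, adjusted p = 0.00148). This comparison lies within a single numbering style. *Ccrl2* and *Cxcr4* were the 2 receptors of the 5 that passed in GF mice, where 15.6% of all tested genes passed. With each mouse left out in turn the *Ccrl2* value stayed between 0.67 and 0.9. Library size alone, in place of TMM factors, moved the median of all genes in this comparison by -0.125 on the log2 scale and *Ccrl2* to 0.69, and with mouse FAD_GF_201 counted as WT *Ccrl2* was at 0.68 (edgeR, adjusted p = 0.0129).

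In SPF and ABX mice *Ccrl2* did not pass. It was at 13.7, 13.8, 18.1, 18.4 and 21 CPM in SPF WT mice and at 18.2, 21.4 and 26.9 CPM in SPF 5xFAD mice, a log2 difference of 0.38 ± 0.187 (SE, edgeR, adjusted p = 0.353). The ABX WT mice lay between 15.7 and 21.1 CPM with a median of 18.1 CPM. The ABX 5xFAD mice ranged from 18.5 to 29.2 CPM with a median of 22.3 CPM, 5 of 6 above all ABX WT mice (log2 0.32 ± 0.157, SE, edgeR, adjusted p = 0.191). The difference of the 5xFAD effect between GF and SPF mice was 0.43 ± 0.257 on the log2 scale (edgeR, adjusted p = 0.679), and between ABX and GF mice it was -0.49 ± 0.234 (edgeR, adjusted p = 0.293). GF 5xFAD mice had the highest mean of the 6 groups (28.9 ± 7.22 CPM, SD, n = 5), followed by ABX (22.9 ± 3.54, n = 6) and SPF 5xFAD mice (22.2 ± 4.44, n = 3) and then by the WT groups, with means between 16.5 and 18.4 CPM. Every neighbouring pair in this order overlapped. The genes closest to *Ccrl2* over the 28 mice were *Plpp1*, *H2-M3*, *Atxn10*, *Htatip2* and *Akr1a1* (r = 0.82 to 0.84).

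A list of 15 immediate early and stress genes that respond to cell preparation was described beside these values, because the median of its summed level was highest in GF mice. It summed to between 1300 and 1430 CPM in GF 5xFAD mice and between 886 and 981 CPM in SPF 5xFAD mice, and its part in the *Ccrl2* values was not tested. Over the 28 mice its summed level correlated with *Ccrl2* with r = 0.33, and with r = 0.37 with group means removed. In GF WT mice the list summed to between 1140 and 1540 CPM. In GF 5xFAD against GF WT mice, 3 of 14 tested genes of the list rose and 0 fell, where 15.6% of all tested genes passed. The summed level of the dendritic cell list also moved with *Ccrl2* in GF mice. It lay between 8.44 and 14.8 CPM in GF WT but between 16.9 and 25.8 CPM in GF 5xFAD mice, without overlap. Of its 6 genes 2 rose, *Cd209a* (edgeR, adjusted p = 0.000987) and *Ccr7* (edgeR, adjusted p = 0.0363), 0 fell and the median log2 fold change over the 6 was -0.384, beside -0.0255 over all tested genes. In GF WT mice *Cd209a* was at 0.429 CPM or less and *Ccr7* at 0, and both passed the filter on low counts through groups where they were high. Over the 28 mice *Ccrl2* correlated with the sums of T and NK cell (r = 0.5), neutrophil with *Csf3r* (0.49), monocyte (0.48), dendritic cell (0.46), border-associated macrophage (0.37) and microglial markers (-0.48). With group means removed these values were 0.09, 0.09, -0.04, 0.16, -0.09 and 0.22. The part of these cells in the *Ccrl2* values was not tested.

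*Ccr2* was low in most libraries and high in part of the ABX 5xFAD mice. Its level was at 1.37, 2.84, 7.61, 7.91 and 8.14 CPM in ABX WT mice. In ABX 5xFAD mice it was at 8.69 CPM in mouse FAD_ABX_1151, 12.8 in mouse FAD_ABX_1482, 13 in mouse FAD_ABX_1453, 21.6 in mouse FAD_ABX_1460, 44.1 in mouse FAD_ABX_1452 and 51.5 CPM in mouse FAD_ABX_1455. All 6 5xFAD mice lay above all ABX WT mice, by a small margin for mouse FAD_ABX_1151. No ABX 5xFAD mouse shares the numbering style of the ABX WT mice, so style and genotype cannot be told apart here. Mouse FAD_ABX_1151 has the style of the SPF 5xFAD mice, which were at 7.71 to 8.6 CPM, and the other ABX 5xFAD mice have another. The log2 fold change was 2.17 ± 0.494 (SE, edgeR, adjusted p = 0.0028), and *Ccr2* and *Cxcr4* were the 2 receptors of the 5 that passed in ABX mice, where 14.4% of all tested genes passed. Without mouse FAD_ABX_1452 the value was 1.95, without mouse FAD_ABX_1455 it was 1.84, and without mice FAD_ABX_1151 and FAD_ABX_1482 together 2.54, and *Ccr2* passed in each.

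*Ccr2* did not pass in the other housing conditions. In SPF mice the groups were apart but close, at 4.44, 6.14, 6.2, 6.31 and 6.98 CPM in WT and 7.71, 8.42 and 8.6 CPM in 5xFAD mice (log2 0.46 ± 0.565, SE, edgeR, adjusted p = 0.841). In GF mice they overlapped, at 3.04, 5.48, 7.14 and 15.4 CPM in WT and 5.31, 5.68, 9.03, 15.8 and 26.2 CPM in 5xFAD mice (log2 0.68 ± 0.53, SE, edgeR, adjusted p = 0.436). The difference of the 5xFAD effect between ABX and SPF mice was 1.72 ± 0.755 (log2, SE, edgeR, adjusted p = 0.726) and between ABX and GF mice 1.49 ± 0.703 (adjusted p = 0.289), so the size of the effect in ABX mice was not shown to differ from that in the others. Mean *Ccr2* was highest in ABX 5xFAD mice (25.3 ± 18.1 CPM, SD, n = 6), then in GF 5xFAD (12.4 ± 8.77, n = 5), SPF 5xFAD (8.24 ± 0.469, n = 3) and GF WT mice (7.76 ± 5.36, n = 4), and lowest in SPF WT (6.02 ± 0.942, n = 5) and ABX WT mice (5.58 ± 3.21, n = 5). Neighbours in this order overlapped throughout.

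Transcripts of other myeloid cells moved with *Ccr2*. The list of 8 border-associated macrophage markers, such as the mannose receptor gene *Mrc1* and the haptoglobin-haemoglobin receptor gene *Cd163*, summed to between 28.7 and 203 CPM in ABX 5xFAD mice and between 3.7 and 5.65 CPM in ABX WT mice, and all 8 rose in this comparison, where 14.4% of all tested genes passed. Of these, *Cd163* was at 0 in all 5 ABX WT mice. Such genes passed the filter on low counts through the groups where they were high, which limits what this count shows. The 2 mice with the most *Ccr2*, FAD_ABX_1452 and FAD_ABX_1455, had the highest sums of this list, 203 and 190 CPM, and also of the monocyte list, 98.2 and 82.4 CPM. Of the 8 tested genes of the monocyte list 5 rose and 1 fell in this comparison, and *F13a1*, a coagulation factor gene that border-associated macrophages also express, made up 69.3 and 62.8 CPM in these 2 mice. *F13a1* was at 0 in 4 of 5 ABX WT mice, and the same limit of the filter holds for it. *Ly6c2*, which defines inflammatory monocytes, was at 0 in 24 of the 28 libraries, mice FAD_ABX_1452 and FAD_ABX_1455 among them, and reached at most 1.03 CPM, in an SPF 5xFAD mouse. The list of 6 dendritic cell markers summed to between 8.2 and 10.7 CPM in ABX WT and between 10.6 and 64.2 CPM in ABX 5xFAD mice, and its member *Cd209a*, a lectin of dendritic cells, was at 0 in the 5 ABX WT mice and at 42.5 and 24.8 CPM in mice FAD_ABX_1452 and FAD_ABX_1455. The part of these cells in the *Ccr2* values was not tested.

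**Figure D3:**
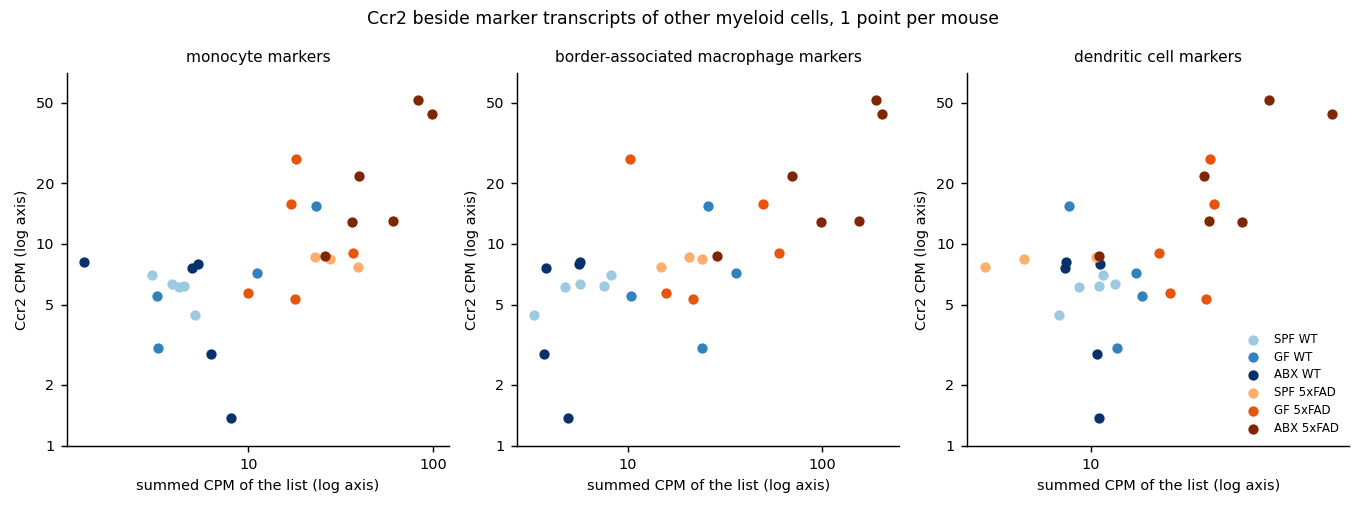
*Ccr2* in CPM (vertical, log axis) against the summed CPM of marker lists for monocytes, border-associated macrophages and dendritic cells (horizontal, log axes), with 1 point per mouse and colours for the 6 groups. The 2 ABX 5xFAD mice with the most *Ccr2*, at 44.1 and 51.5 CPM, also had the highest sum of all 3 lists.

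Over the 28 mice *Ccr2* correlated with the T and NK cell sum with r = 0.71, with the border-associated macrophage sum with r = 0.7, with the monocyte sum with r = 0.68 and with the dendritic cell sum with r = 0.62. With group means removed these values were 0.5, 0.32, 0.31 and 0.34. The genes most like *Ccr2* were *H2-Ab1*, *H2-Aa*, *Mcm5*, *Dab2* and *Cd74*, with r between 0.71 and 0.77. 3 of these 5 belong to antigen presentation on MHC class II, and with group means removed *H2-Aa* (r = 0.7) and *H2-Ab1* (r = 0.64) were again among the nearest 5. *H2-Aa* was at 239 and 232 CPM in the ABX 5xFAD mice FAD_ABX_1455 and FAD_ABX_1452, at 113 CPM in the GF 5xFAD mouse FAD_GF_182 with the most *Ccr2* of its group, and at 1.12 CPM or less in SPF WT mice. The T and NK cell list summed to between 0.451 and 5.98 CPM in ABX 5xFAD mice, with the highest value in mouse FAD_ABX_1455, and to at most 0.172 CPM in ABX WT mice. Of its 9 genes 2 passed the filter on low counts, through the groups where they were high, and both rose in this comparison, where 14.4% of all tested genes passed. They were *Cd4*, which some macrophages also express and which was at 0 in all ABX WT mice (edgeR, adjusted p = 0.00449), and *Klrb1c* (edgeR, adjusted p = 0.0146), at 0 in 4 of 5 of them, and they reached at most 4.21 and 2.78 CPM in any library. *Cd3e*, which defines T cells, was at 0 in 27 of 28 libraries and *Cd8a* and *Gzma* in all 28. The part of such cells in the *Ccr2* values was not tested. Of the 6758 windows of 50 bases, the read length, in annotated *Ccr2* transcripts, 129 also occur in transcripts of other genes, and how such reads were counted is not given in the sources used here.

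*Ccr1*, a receptor for CCL3 and CCL5, was lowest in GF 5xFAD mice. It was at 7.69, 15, 15.2, 15.8 and 16.6 CPM in GF 5xFAD mice. In ABX 5xFAD mice it was at 19.3 CPM in mouse FAD_ABX_1151, 19.7 in mouse FAD_ABX_1460, 32.8 in mouse FAD_ABX_1482, 46.5 in mouse FAD_ABX_1452, 46.7 in mouse FAD_ABX_1453 and 52.3 CPM in mouse FAD_ABX_1455, all above all GF 5xFAD mice. The log2 fold change of ABX against GF 5xFAD mice was 1.37 ± 0.285 (SE, edgeR, adjusted p = 0.00341). *Ccr1* was the 1 receptor of the 5 that passed in this comparison, in which 10.6% of all tested genes passed. Without mouse FAD_ABX_1151, which leaves mice of a single numbering style, the value was 1.51 (edgeR, adjusted p = 0.00245), and with numbering style as a term among the 5xFAD mice it was 1.52 (edgeR, adjusted p = 0.0161). Over all settings tried, adjusted p lay between 4.88e-05 and 0.0298. The 3 ABX 5xFAD mice with the most *Ccr1*, FAD_ABX_1452, FAD_ABX_1453 and FAD_ABX_1455, also had the highest border-associated macrophage sums, 203, 155 and 190 CPM, and the highest monocyte sums, 98.2, 60.4 and 82.4 CPM. GF 5xFAD mice lay between 10.3 and 59.9 CPM of the former and between 9.91 and 36.6 CPM of the latter list. *Mrc1* was the 1 gene of the 8 border-associated macrophage markers that rose in this comparison (log2 2.16, edgeR, adjusted p = 0.00351). The part of these cells in the *Ccr1* values was not tested. Over the 28 mice *Ccr1* correlated with these sums with r = -0.06 and -0.03, and with group means removed with r = 0.19 and 0.28. For the microglial sum the values were 0.43 and 0.26, and for the neutrophil sum with *Csf3r* -0.36 and -0.38. Of 11 microglial genes 4 rose and 1 fell in ABX against GF 5xFAD mice, as did 4 and 1 of 7 tested neutrophil genes. Without *Csf3r* the neutrophil sum was high only in mouse FAD_ABX_1151 of these groups, at 141 CPM. Their part was not tested either. The cell preparation list separated the same groups, with sums of 883 to 1220 CPM in ABX and 1300 to 1430 CPM in GF 5xFAD mice, and *Ier3*, *Ier2* and *Zfp36* fell by 0.95, 0.77 and 0.56 on the log2 scale (edgeR, adjusted p = 0.0266, 0.0263 and 0.0133). Its correlation with *Ccr1* over the 28 mice was r = -0.3, and 0.35 with group means removed, and its part in the *Ccr1* values was not tested.

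In WT mice, too, the mean of *Ccr1* was lowest in GF housing, but the difference did not pass. GF WT mice differ fully in numbering style from SPF and ABX WT mice, so style and housing cannot be told apart here. SPF WT mice were at 30.2, 32.6, 35, 40.9 and 46.7 CPM and GF WT mice at 11.1, 15.7, 20.6 and 33.9 CPM, the highest of them mouse WT_GF_199. ABX WT mice were at 21.8, 24.1, 30.7, 37.5 and 55.9 CPM. The log2 difference of GF against SPF WT mice was -0.86 ± 0.311 (SE, edgeR, adjusted p = 0.14), and without mouse WT_GF_199 it was -1.23 (edgeR, adjusted p = 0.0408). The ABX against GF difference in WT mice was 0.74 ± 0.31 (edgeR, adjusted p = 0.146). None of the 5 receptors passed in either comparison, with 1.62% and 6.88% of all genes passing, and *Ccr1* was the single receptor with an unadjusted p under 0.05 in each. DESeq2 called 0 of the 5 in both, without an adjusted p for *Cxcr4*, and voomWithQualityWeights called *Ccr1* in GF against SPF WT mice (log2 -1.08 ± 0.266, SE, adjusted p = 0.00947).

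In SPF mice *Ccr1* was at 19.4, 20.4 and 23.9 CPM in 5xFAD mice, all below the 5 WT mice. The log2 fold change was -0.81 ± 0.341 (SE, edgeR, adjusted p = 0.241). It passed under voomWithQualityWeights (-0.87, adjusted p = 0.00836) and in an edgeR fit of only these 8 mice (-0.8, adjusted p = 0.00367). The difference was -0.54 ± 0.308 in GF mice (edgeR, adjusted p = 0.264) and 0.09 ± 0.274 in ABX mice (edgeR, adjusted p = 0.87). The difference of the 5xFAD effect between ABX and SPF mice was 0.9 ± 0.436 (edgeR, adjusted p = 0.733). By mean level SPF WT mice came first (37.1 ± 6.68 CPM, SD, n = 5), with the ABX groups close behind (5xFAD, 36.2 ± 14.4, n = 6; WT, 34 ± 13.7, n = 5), then SPF 5xFAD (21.2 ± 2.37, n = 3), GF WT (20.3 ± 9.85, n = 4) and last GF 5xFAD mice (14 ± 3.61, n = 5), and each group overlapped the next. The nearest genes over the 28 mice were *Btf3l4*, *Zfp113*, *Mynn*, *Pirb* and *Atad1* (r = 0.72 to 0.79).

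*Ccr1* (chr9:123962126-123968692, minus strand) and *Ccr2* (chr9:124101950-124113557, plus strand) lie in a cluster of chemokine receptor genes on chromosome 9. Another 5 of these genes are described here. *Ccr1l1* (chr9:123976949-123978408), the Ccr1-like gene beside *Ccr1*, fell by 1.5 on the log2 scale in GF against SPF 5xFAD mice (edgeR, adjusted p = 0.0188), from 4.04 ± 1.55 (SD, n = 3) to 1.43 ± 0.888 CPM (n = 5). These groups differ fully in numbering style. It rose in ABX against GF 5xFAD mice by 1.4 (edgeR, adjusted p = 0.0149), as *Ccr1* did by 1.37. *Ccr2* moved by 1.03 ± 0.469 in that comparison and did not pass (edgeR, adjusted p = 0.158). The other 4 genes, *Ccr3*, *Cxcr6*, *Xcr1* and *Ccr9*, were called in none of the 12 comparisons. The windows of 50 bases in *Ccr1* transcripts occur in no other annotated transcript, so *Ccr1* and *Ccr1l1* share no identical stretch of that length. Stretches alike but for single bases were not searched.

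**Figure D4:**
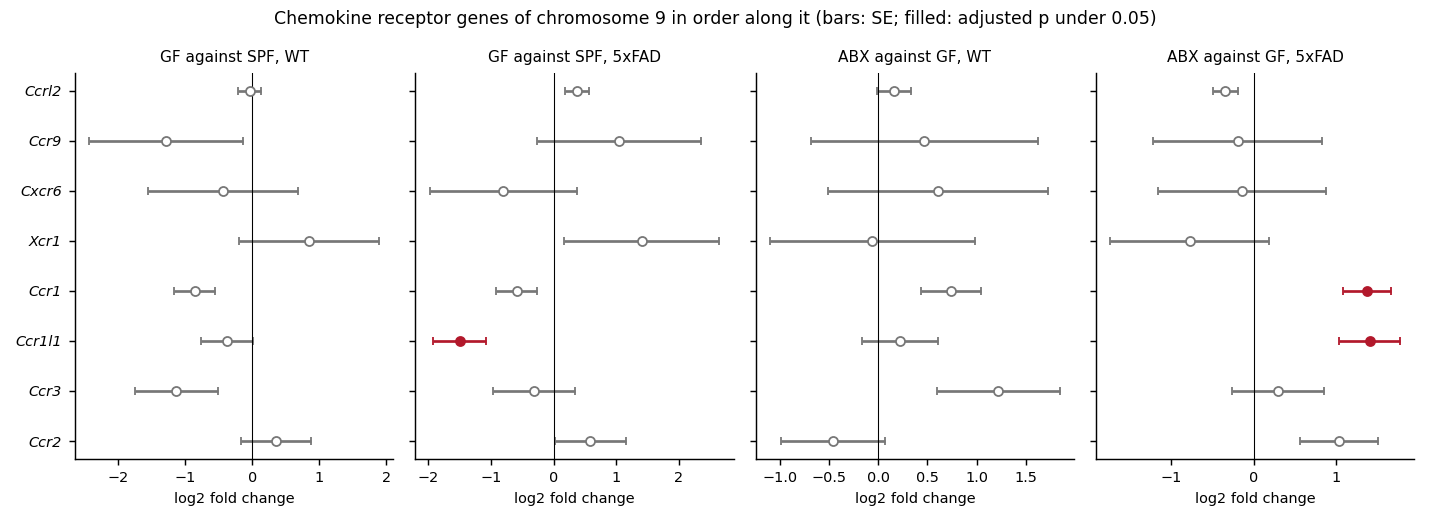
Log2 fold changes (horizontal axes) with SE of 8 chemokine receptor genes of chromosome 9, listed in their order along it, for GF against SPF and ABX against GF mice of each genotype, filled where the adjusted p was under 0.05. *Ccr1l1* was called in both comparisons of 5xFAD mice, *Ccr1* only in ABX against GF 5xFAD mice and *Ccr2* in none of the 4.

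*Cmklr1* (chr5:113612354-113650426, minus strand), the chemerin receptor that signals, varied least between mice and overlapped between all groups. SPF WT mice were at 34, 34.7, 34.7, 47.8 and 51.9 CPM, GF WT mice at 35.6, 38.8, 42.9 and 44.2 CPM, and ABX WT mice at 32.9, 37.9, 42.2, 42.4 and 51.4 CPM. SPF 5xFAD mice were at 32.4, 36.4 and 56.8 CPM and GF 5xFAD mice at 35.8, 41.4, 42.1, 42.3 and 46.1 CPM. ABX 5xFAD mice ranged from 16.4 CPM in mouse FAD_ABX_1460 to 43.4 CPM, with a median of 34.7 CPM. *Cmklr1* passed in none of the 12 comparisons. Its 5xFAD effect on the log2 scale was 0.04 ± 0.217 in SPF (SE), 0.04 ± 0.2 in GF and -0.29 ± 0.18 in ABX mice, and the intervals of 2 SE around these values reached from -0.39 to 0.48, from -0.36 to 0.44 and from -0.65 to 0.07. The sign of the values near 0 changed with scaling by library size alone. Its nearest genes over the 28 mice were *Lsm12*, *Gltscr1*, *Siglech*, *Mon2* and *BC005537* (r = 0.71 to 0.82).

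In comparisons of housing 1 of the 5 receptors passed, *Ccr1* in ABX against GF 5xFAD mice. In GF against SPF 5xFAD mice 0 of the 5 passed under edgeR, where 12.8% of all genes passed, and 0 of the 5 had an unadjusted p under 0.05. *Ccrl2* had a log2 difference of 0.38 ± 0.19 in this comparison (edgeR, adjusted p = 0.192) and passed under voomWithQualityWeights at 0.47 (adjusted p = 0.0265), whereas DESeq2 called 0 of the 5, again without an adjusted p for *Cxcr4*. In ABX against SPF mice edgeR called 0% of all genes in either genotype, although 687 genes in WT and 1085 in 5xFAD mice had an unadjusted p under 0.05. DESeq2 called 2 and 8 genes there and voomWithQualityWeights 0 and 134, and neither called any of the 5 receptors. Of the 5, 0 in WT and 2 in 5xFAD mice had an unadjusted p under 0.05. The largest differences among the receptors in ABX against SPF 5xFAD mice were those of *Ccr2*, 1.62 ± 0.583 (log2, SE, edgeR, adjusted p = 0.635), and *Ccr1*, 0.77 ± 0.333 (edgeR, adjusted p = 0.658). With numbering style as a term they were 0.07 ± 0.842 for *Ccr2* and -0.13 ± 0.455 for *Ccr1* (SE), values that rest on mouse FAD_ABX_1151, the 1 ABX 5xFAD mouse with the style of the SPF 5xFAD mice. For the difference of the 5xFAD effect, 0% of genes passed between GF and SPF and between ABX and SPF mice, with 1304 and 1032 genes at an unadjusted p under 0.05. Between ABX and GF mice 1.76% passed. None of the 5 receptors passed in these 3, with 0, 2 and 2 of them at an unadjusted p under 0.05, and DESeq2 and voomWithQualityWeights called 0 of the 5 in each.

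Several genes of ligands rose in 5xFAD mice in the same libraries. Of 12 ligand genes listed for the 5 receptors 11 could be tested, and 4 rose in SPF, 5 in GF and 6 in ABX 5xFAD against WT mice, while 0 fell, beside 4.57%, 15.6% and 14.4% of all tested genes that passed. The median log2 fold change of the 11 was 1.38, 1.18 and 1.63, beside -0.027, -0.0255 and -0.0127 over all tested genes. *Ccl3*, a ligand of CCR1, was at 21.4 ± 4.7 CPM in SPF WT mice (SD, n = 5) and at 142 ± 47.7 in SPF 5xFAD mice (n = 3). It was at 24.2 ± 12 CPM in GF WT (n = 4) and at 290 ± 110 in GF 5xFAD mice (n = 5), and at 19.2 ± 5.23 in ABX WT (n = 5) and 151 ± 35.7 CPM in ABX 5xFAD mice (n = 6). Its log2 fold changes were 2.72, 3.58 and 2.98 in SPF, GF and ABX mice (edgeR, adjusted p = 1.79e-07, 1.35e-09 and 4.52e-09). *Ccl4*, an inflammatory chemokine related to *Ccl3*, rose by 1.97, 2.88 and 2.14, and *Ccl6*, a CCR1 ligand of rodents, by 2.09, 2.52 and 1.63. *Mif* rose by 1.38, 1.58 and 1.46 in the same order. *Ccl5* rose in GF (log2 2.61) and ABX mice (2.44) from levels of at most 1.89 CPM in WT mice.

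Some of these ligands differed with housing among 5xFAD mice. *Ccl3*, *Ccl4* and *Ccl6* rose in GF against SPF 5xFAD mice by 1.04, 1.17 and 0.66 on the log2 scale (edgeR, adjusted p = 0.0265, 0.0354 and 0.0208). These groups, too, differ fully in numbering style. In ABX against GF 5xFAD mice they fell by 0.94, 1.14 and 0.8 (edgeR, adjusted p = 0.0149, 0.0133 and 0.00181), and *Mif* fell by 0.54 (edgeR, adjusted p = 0.0175), whereas *Ccr1* rose there. The cell preparation genes moved in the same direction as these ligands: 6 of 14 rose and 0 fell in GF against SPF 5xFAD mice, where 12.8% of all tested genes passed, and 0 rose and 3 fell in ABX against GF 5xFAD mice, where 10.6% passed. Their part in the ligand values was not tested. Both comparisons share the GF 5xFAD mice. *Ccl2* and *Ccl12*, ligands of CCR2, did not pass. The group means of *Ccl2* lay between 3.33 and 5.98 CPM in WT and between 6.94 and 8.42 in 5xFAD mice, and those of *Ccl12* between 33 and 44.1 and between 68.7 and 99.7 CPM. *Ccl8* was called in ABX 5xFAD against ABX WT and against GF 5xFAD mice, and it was at 0 in all ABX WT mice and between 0 and 10.4 CPM in ABX 5xFAD mice. This gene passed the filter on low counts through the ABX 5xFAD group. *Cxcl12*, the ligand of CXCR4, had a group mean of at most 1.32 CPM. *Rarres2*, the gene of chemerin, was the ligand that did not pass the filter, with at most 6 reads in a library.

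**Figure D5:**
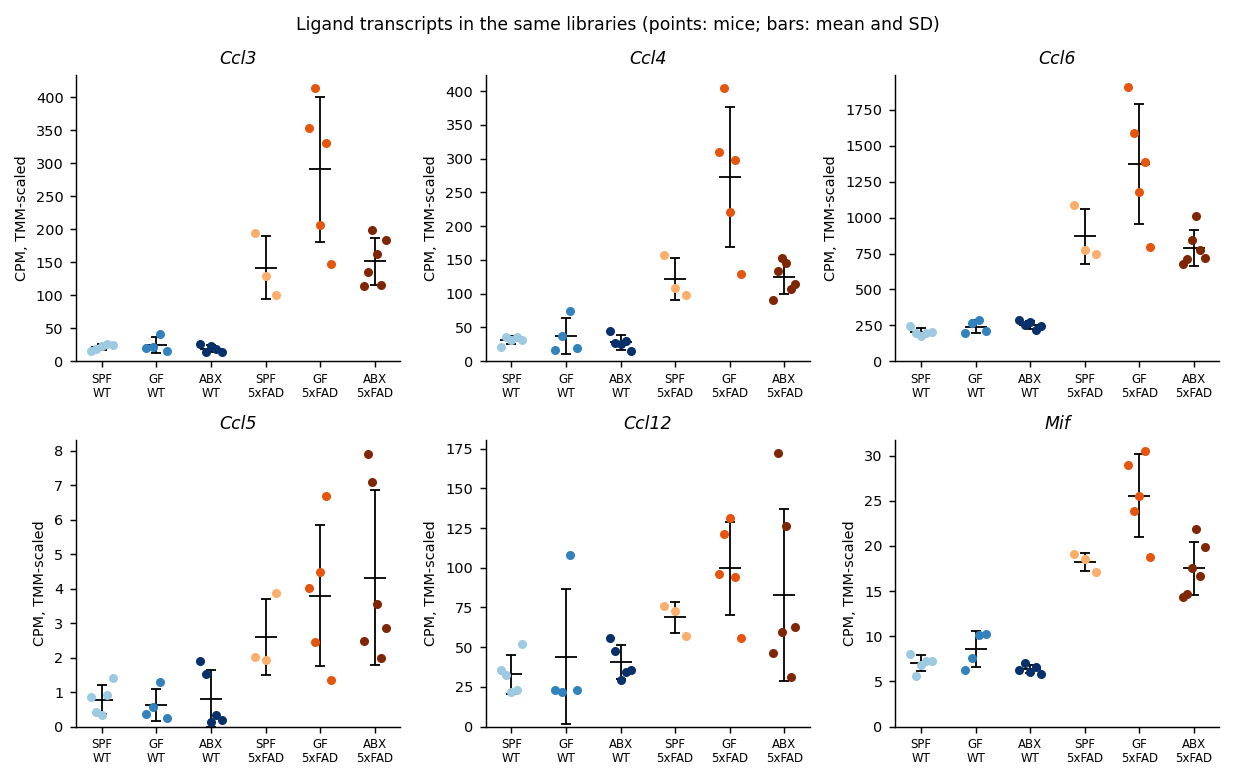
Levels of 6 ligand transcripts in CPM (vertical axes, from 0) by group, with 1 point per mouse, the group mean as a horizontal bar and the SD as a vertical bar. *Ccl3* and *Ccl4* were at group means of 290 and 273 CPM in GF 5xFAD mice, against 142 and 122 CPM in SPF and 151 and 124 CPM in ABX 5xFAD mice.

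Among 20 other chemokine receptor genes 13 could be tested. In 5xFAD against WT mice 0 passed under SPF, 1 rose and 2 fell under GF and 0 passed under ABX conditions, beside 4.57%, 15.6% and 14.4% of all tested genes that passed. Those that fell were *Ccr1l1* (log2 -1.47 in GF mice, edgeR, adjusted p = 0.00971) and the fractalkine receptor gene *Cx3cr1* (-0.57 in GF mice, edgeR, adjusted p = 5.93e-05). The 1 that rose was *Ccr7*, a receptor of maturing dendritic cells, which was at 0 in 3 of 5 GF 5xFAD and all GF WT mice and at 13.7 CPM in 1 GF 5xFAD mouse. *Cx3cr1* was the 1 receptor of the 13 whose 5xFAD effect differed, by 0.49 ± 0.127 between ABX and GF mice (log2, SE, edgeR, adjusted p = 0.0452), where 1.76% of all tested genes passed. It was at 6400 ± 608 CPM in GF WT (SD, n = 4) and 4310 ± 408 in GF 5xFAD mice (n = 5), and at 5620 ± 631 in ABX WT (n = 5) and 5310 ± 391 CPM in ABX 5xFAD mice (n = 6). In ABX against GF mice 0 rose and 1 fell in WT and 2 rose and 1 fell in 5xFAD mice, where 6.88% and 10.6% of all tested genes passed. The 1 that fell was *Cxcr2* in both (log2 -6.65 and -6.25, edgeR, adjusted p = 0.0409 and 0.0252), at 0 in 20 libraries.

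Downstream of the receptors, 28 genes of G proteins, their regulators and the kinases and exchange factors of chemoattractant signalling could be tested. In 5xFAD against WT mice 0 rose and 1 fell in SPF, 1 rose and 8 fell in GF and 3 rose and 5 fell in ABX mice, where 4.57%, 15.6% and 14.4% of all tested genes passed. *Rgs2*, a regulator that speeds the inactivation of G proteins, fell in all 3 conditions, by 0.58, 0.38 and 0.47 on the log2 scale in SPF, GF and ABX mice (edgeR, adjusted p = 0.000391, 0.0049 and 0.000205). *Elmo1*, a scaffold that acts with DOCK proteins on Rac, fell by 0.53 in GF and by 0.31 in ABX mice. The median log2 fold change of the list was -0.117, -0.149 and -0.0565 in SPF, GF and ABX mice, beside -0.027, -0.0255 and -0.0127 over all tested genes. In ABX against GF 5xFAD mice 4 genes rose and 1 fell, where 10.6% of all tested genes passed, and the largest rises were those of the receptor kinase gene *Adrbk2* (0.59) and *Elmo1* (0.52).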

How the data were processed

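The authors sorted microglia, amplified cDNA from low-input RNA with a kit that does not mark strand, and sequenced 50-cycle single reads. They aligned the reads with STAR to GRCm38, while the labels name a human build, and counted them with featureCounts on GENCODE M21. The submitters' processing notes give STAR 2.7.2, featureCounts 1.6.2, limma 3.40.6 and edgeR 3.26.7. The authors deposited these as raw counts, not normalized, with 1 column per mouse.

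Counts were analysed with edgeR 4.0.16 in R 4.3.3: filterByExpr (minimum count 10, minimum total 15), TMM factors, 1 term per group, quasi-likelihood tests, Benjamini-Hochberg adjustment over 15298 genes and a threshold of 0.05. The 92 spike-in entries held at most 12 reads in a library and were left out. Log2 CPM used a prior count of 2. Groups came from the labels, which do not number mice across groups, and p-values measure the spread between mice. No pair of libraries within a group was alike within sampling noise, with a chi-square of at least 6.64 per degree of freedom. The common biological coefficient of variation was 29.7%. On simulated data for 5xFAD against WT mice over 15298 genes, 54% of 200 genes changed by 1 on the log2 scale were recovered in SPF and 53.5% in GF mice, and 69% and 75.5% of those changed by 2. Between 2.13% and 6.21% of the calls in these simulations were false.

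The receptors, the gene lists and the tests were chosen with earlier results of these data known. Named genes were the receptors, the 5 genes most correlated with each, up to 4 called genes of each list per comparison, receptor genes within 1 megabase and marker genes. Some genes of these lists are not reported here. *Ccr9*, *Cxcr6*, *Xcr1* and *Ccr3* entered by position. Alternatives were RLE factors, library size alone, no filter, DESeq2 1.42.0, voomWithQualityWeights of limma 3.58.1, a fit of only the groups compared, mouse FAD_GF_201 as WT, 26 mice without ABX 5xFAD mice FAD_ABX_1151 and FAD_ABX_1482, numbering style as a term, a threshold of 0.1 and leaving out each mouse. Marker sums and windows of 50 bases were computed in R and Python 3.11.15, and figures with matplotlib 3.10.9.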

Additional observations from a re-analysis of the deposited data

Results flagged for a closer look

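Single mice stood apart from the rest of their group for 2 receptors, among 25 groups of 4 to 6 mice examined, where chance alone would set about 1 in 20 groups apart by this measure. *Ccr1* was at 7.69 CPM in GF 5xFAD mouse FAD_GF_181, and the next mouse of that group was at 15 CPM. *Cxcr4* was at 0.535 CPM in ABX WT mouse WT_ABX_911, with the other 4 mice of that group at 0. The *Ccr1* difference between ABX and GF 5xFAD mice passed with mouse FAD_GF_181 left out as well, and the *Cxcr4* difference between ABX 5xFAD and ABX WT mice passed without mouse WT_ABX_911.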

How the results depend on the processing

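The calls of *Cxcr4* and *Ccr2* in ABX, of *Cxcr4* in SPF, of *Ccrl2* in GF mice and of *Ccr1* in ABX against GF 5xFAD mice held under every alternative in which they were computed. Of 2172 log2 fold changes of the 5 receptors recomputed under alternatives, 2094 kept their direction and their side of the threshold, 7 lost their call, 8 gained one and 63 changed sign without being called in either setting. The number of receptors called in SPF 5xFAD against SPF WT mice was 2 instead of 1 with voomWithQualityWeights and with only the groups compared. In GF 5xFAD against GF WT mice it was 1 instead of 2 with mouse FAD_GF_201 as WT, and between 1 and 2 with 1 mouse left out. In GF against SPF WT mice it was 1 instead of 0 with voomWithQualityWeights and with only the groups compared, and between 0 and 1 with 1 mouse left out, as in ABX against GF WT mice (0 to 1), where leaving out GF WT mouse WT_GF_199 called *Ccr1* (log2 1.11) and leaving out ABX WT mouse WT_ABX_911 called *Cxcr4* (log2 -5.52). In GF against SPF 5xFAD mice it was 1 instead of 0 with voomWithQualityWeights. The cause of these changes was not tested. No paired analysis was possible because mouse numbers are not shared between groups.

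The following values, none of them called, changed sign on the log2 scale. The largest of them in the analysis as reported were *Ccr1* in ABX against SPF 5xFAD mice at 0.77, *Ccr2* in GF against SPF 5xFAD mice at 0.59 and the difference of the *Cxcr4* effect between ABX and SPF mice at -0.73. *Cmklr1* in 5xFAD against WT mice was -0.01 in SPF and -0.08 in GF mice with library size alone, and -0.1 in SPF mice with voomWithQualityWeights. With voomWithQualityWeights *Cmklr1* was 0.06 in GF against SPF WT, -0.01 in ABX against GF WT and 0.19 in GF against SPF 5xFAD mice, and 0.13 for the difference of the 5xFAD effect between GF and SPF mice. With that method *Cxcr4* was -1.09 in ABX against SPF WT mice, and the difference of the 5xFAD effect between ABX and SPF mice was 0.99 for *Cxcr4* and 0.03 for *Ccrl2*. With only the groups compared *Cmklr1* was 0 in GF against SPF WT mice and 0 for the difference between GF and SPF mice. Over 26 mice *Cxcr4* was 0.07 in ABX against SPF 5xFAD mice. With mouse FAD_GF_201 as WT, *Ccrl2* was 0.12 in GF against SPF and -0.01 in ABX against GF WT mice, and *Cmklr1* was 0.04 in GF against SPF 5xFAD mice and 0.08 for the difference of the 5xFAD effect. With numbering style as a term, a fit that links the styles through mouse FAD_ABX_1151 alone, GF against SPF 5xFAD mice gave -1.17 for *Ccr2* and 0 for *Ccrl2*, and ABX against SPF 5xFAD mice -0.13 for *Ccr1* and -0.26 for *Ccrl2*.

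With 1 mouse left out, *Cmklr1* ranged from -0.23 to 0.21 in SPF and from -0.02 to 0.1 in GF 5xFAD against WT mice, from -0.07 to 0.09 in GF against SPF, from -0.06 to 0.13 in ABX against SPF and from -0.06 to 0.11 in ABX against GF WT mice, from -0.18 to 0.27 in GF against SPF 5xFAD mice, and from -0.18 to 0.28 for the difference of the 5xFAD effect between GF and SPF mice. *Ccr1* ranged from -0.04 to 0.35 in ABX 5xFAD against WT and from -0.37 to 0.01 in ABX against SPF WT mice. *Ccr2* ranged from -0.21 to 0.63 in GF against SPF WT, from -0.26 to 0.15 in ABX against SPF WT and from -0.73 to 0.11 in ABX against GF WT mice, and from -0.25 to 0.79 for the difference between GF and SPF mice. *Ccrl2* ranged from -0.14 to 0.04 in GF against SPF WT, from -0.09 to 0.21 in ABX against SPF 5xFAD mice and from -0.2 to 0.1 for the difference between ABX and SPF mice. *Cxcr4* ranged from -3.61 to 0.88 in ABX against SPF WT mice, from -1.11 to 3.38 for the difference between ABX and SPF and from -0.18 to 4.65 for that between ABX and GF mice, with the ends without mouse WT_ABX_911 set by a group at 0. Counts were lowest for *Cxcr4*, whose WT libraries held 0 to 10 reads.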
